A study of Mus musculus with 2 samples.

Results

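The circadian clock genes described here were 10 of the 31058 entries of the feature list, taken by symbol: the activators Arntl (which encodes BMAL1), Clock and Npas2, the period genes Per1, Per2 and Per3, the nuclear receptors Nr1d1 and Nr1d2 (REV-ERB alpha and beta), and the output factors Dbp and Tef. All 10 were found in both libraries. Their levels were set out over podocyte-, parietal-, mesangial-, endothelial- and tubule-like cells of mouse kidney glomeruli.

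The clock is a feedback loop carried by nearly every mammalian cell. BMAL1 pairs with CLOCK or NPAS2 on E-box elements and activates the Per, Nr1d, Dbp and Tef genes; PER proteins, with CRY partners, then inhibit that pair, and REV-ERB proteins repress Arntl and Npas2 through ROR elements. DBP and TEF bind D-box elements in further target genes. Transcripts of Arntl and Npas2 therefore run out of phase with those of Dbp, Nr1d1 and Per3 in mouse tissues, the kidney included, while Per1 and Per2 are also induced quickly by stress, glucocorticoids and serum.

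Glomerular cells of 2 healthy C57Bl/6 mice, 1 titled female and 1 titled male, each gave 1 droplet 3' transcript library. Both mice had the genotype Pax2.rtTA;TetO.Cre;R26.Confetti, in which doxycycline switches on Cre in cells using the Pax2 driver and Cre recombines a multicolour reporter; the series text calls the animals wild type. Both received doxycycline at 19 days of age and were killed at 30 days. The hour of killing, which sets the expected level of most clock genes, is not given in the sources at hand. With 1 library per title there is no test between the libraries, and intervals in brackets are 95% intervals that cover counting error only. Sex-linked transcripts went against the titles: Xist was at 0.682 CPM (the share of UMIs scaled to a common total) in the female-labelled library and 1593 CPM in the male-labelled library, and Y-linked genes summed to 214 CPM in the female-labelled library and 0.0206 CPM in the male-labelled library. Directions below are therefore given between libraries as labelled, and not between sexes. The female-labelled library held 67648465 UMIs (molecular tags that count captured transcripts), with 4909 cells kept at a median of 10672 UMIs, and the male-labelled library 57841860 UMIs, with 4442 cells kept at a median of 9616 UMIs; 10 barcodes occurred in both libraries, 7 of them kept in both.

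Cells were clustered without any clock gene and named from marker genes. The podocyte-like class held 4137 cells of the female-labelled library and 3734 of the male-labelled library, the parietal-like class 176 (female-labelled) and 117 (male-labelled), the mesangial-like class 242 (female-labelled) and 175 (male-labelled), the endothelial-like class 196 (female-labelled) and 172 (male-labelled), and the tubule-like class 70 (female-labelled) and 113 (male-labelled). The endothelial-like class joined a glomerular capillary cluster of 112 (female-labelled) and 89 cells (male-labelled) and an arterial cluster of 84 (female-labelled) and 83 cells (male-labelled). The parietal-like cluster was mixed: at a finer clustering 72 (female-labelled) and 49 (male-labelled) of its cells kept the parietal-like name, and 104 (female-labelled) and 68 (male-labelled) fell in an unnamed cluster led by Cst12, Igfbp6 and Dkk3. That unnamed cluster also had 10 of 10 podocyte markers. Parietal-like values and differences from podocyte-like cells below are of the whole mixed class unless the finer cells are named. The tubule-like class was mostly a thick ascending limb-like cluster of 60 (female-labelled) and 91 cells (male-labelled), which also held distal convoluted tubule transcripts, with 10 (female-labelled) and 22 (male-labelled) proximal tubule-like cells. Podocyte RNA was present in every other class. Nphs1, which encodes the slit diaphragm protein nephrin, was at 29.3% of its podocyte-like level in parietal-like cells of the female-labelled library and 26.6% in those of the male-labelled library. It was at 14.6% (female-labelled) and 5.02% (male-labelled) in mesangial-like, 11.2% (female-labelled) and 15.4% (male-labelled) in endothelial-like, and 16.8% (female-labelled) and 15.2% (male-labelled) in tubule-like cells. The levels below include that RNA.

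The promoters printed here show letter matches to elements of the loop in 4 members, each in a window picked because it held a match. In each, the capitals mark an E-box (CACGTG), a D-box (TTATGTAA) or the ROR core (AGGTCA), searched for on both strands of RefSeq promoter windows on GRCm38.p6. Windows were found for 9 of the 10 members, 14 windows in all; Per2 had none. The Per3 window on chr4:151044616-151044915 (minus strand) holds the D-box at 2 positions, and 0.938% of the 32851 windows of all genes hold it at least once. The Per1 window on chr11:69098699-69098998 (plus strand) holds 1 E-box and 1 ROR core, and the Tef window on chr15:81802423-81802722 (plus strand) holds 1 E-box. The E-box occurred in 7.15% of all windows and the ROR core in 16.3%. The Arntl window on chr7:113207261-113207560 (plus strand) holds 1 ROR core, which lies after the transcript start.
Per3: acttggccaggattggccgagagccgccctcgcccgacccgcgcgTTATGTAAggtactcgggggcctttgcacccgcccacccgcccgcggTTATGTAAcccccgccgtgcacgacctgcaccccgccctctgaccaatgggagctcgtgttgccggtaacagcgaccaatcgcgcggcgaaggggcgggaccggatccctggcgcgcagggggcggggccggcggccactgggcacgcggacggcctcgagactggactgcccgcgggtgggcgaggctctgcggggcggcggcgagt
Per1: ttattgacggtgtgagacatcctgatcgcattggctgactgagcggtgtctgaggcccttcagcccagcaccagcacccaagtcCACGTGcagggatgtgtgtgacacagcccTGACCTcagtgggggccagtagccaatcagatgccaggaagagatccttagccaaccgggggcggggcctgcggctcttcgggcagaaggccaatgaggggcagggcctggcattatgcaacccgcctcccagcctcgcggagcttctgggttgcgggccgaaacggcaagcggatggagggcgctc
Tef: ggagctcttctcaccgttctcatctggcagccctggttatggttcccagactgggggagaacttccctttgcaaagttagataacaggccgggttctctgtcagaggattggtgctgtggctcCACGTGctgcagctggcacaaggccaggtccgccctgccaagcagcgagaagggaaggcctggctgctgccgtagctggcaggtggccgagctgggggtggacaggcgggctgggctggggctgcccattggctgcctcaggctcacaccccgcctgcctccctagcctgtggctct
Arntl: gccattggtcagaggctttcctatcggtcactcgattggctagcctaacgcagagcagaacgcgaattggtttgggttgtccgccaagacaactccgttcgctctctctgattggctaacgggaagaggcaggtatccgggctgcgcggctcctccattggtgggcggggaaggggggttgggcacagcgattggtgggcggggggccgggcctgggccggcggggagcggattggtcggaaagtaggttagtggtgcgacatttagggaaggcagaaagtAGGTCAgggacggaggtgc
The remaining windows held the ROR core once in Clock and once in Nr1d2 and an E-box once more in Tef. No match was found in the windows of Npas2, Nr1d1 and Dbp, nor in the other windows of Arntl, Per1 and Clock. The matches are of letters in short windows and are not measured binding.

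Dbp was higher in the female-labelled library in podocyte-, parietal-, mesangial- and endothelial-like cells by 1.76- to 4.03-fold, with intervals above 1. Arntl was lower there by 1.28- to 2.02-fold, with intervals clear of 1 in podocyte- and endothelial-like cells. In tubule-like cells the intervals of both genes held 1.

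**Figure D1:**
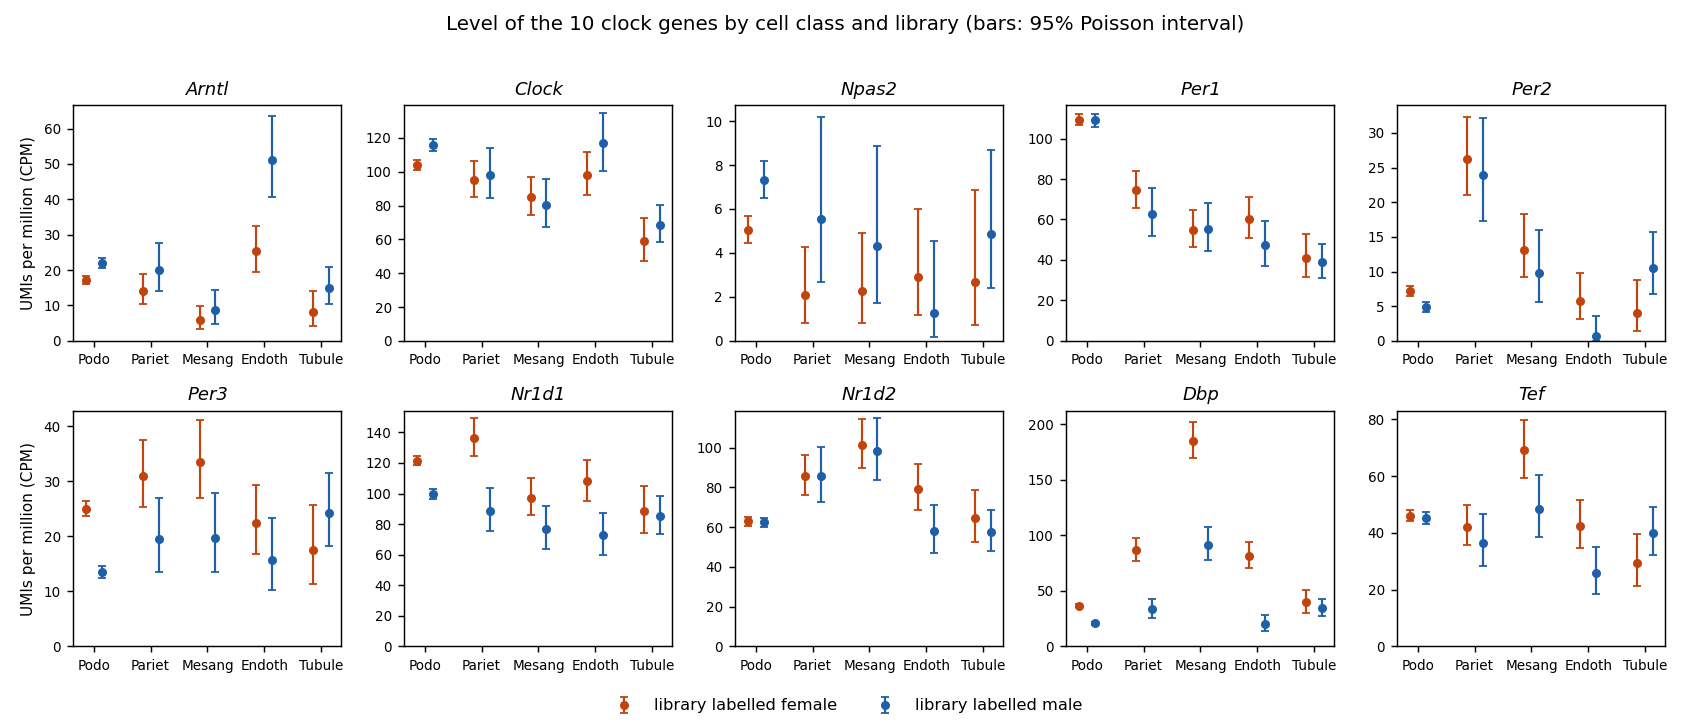
Level of each clock gene in CPM (vertical axis) in the 5 cell classes (horizontal axis), with the female-labelled library at the left of each pair and the male-labelled library at the right; bars are 95% Poisson intervals of the UMI count. Dbp was at 185 CPM in mesangial-like cells of the female-labelled library and 91.6 CPM in those of the male-labelled library, above every other class in its library.

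Among the activators, Arntl lies on chromosome 7 (113207465 to 113314126, plus strand; GRCm38, as for all gene positions here). In podocyte-like cells its level was 17.2 CPM in the female-labelled library and 21.9 CPM in the male-labelled library. It was 14.2 CPM (female-labelled) and 19.98 CPM (male-labelled) in parietal-like cells, 6.01 (female-labelled) and 8.61 CPM (male-labelled) in mesangial-like cells, 25.4 (female-labelled) and 51.1 CPM (male-labelled) in endothelial-like cells, and 8.06 (female-labelled) and 14.97 CPM (male-labelled) in tubule-like cells. The female-labelled library was the lower one in all 5 classes. The ratio of female-labelled over male-labelled was 0.782 (0.711 to 0.860) in podocyte-like and 0.496 (0.350 to 0.700) in endothelial-like cells; in parietal-like (0.709), mesangial-like (0.698) and tubule-like cells (0.539) the interval held 1.

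Clock, the constitutive partner of BMAL1 (chromosome 5, 76209868 to 76304792, minus strand), varied little between the libraries. It was at 103.8 CPM in podocyte-like cells of the female-labelled library and 115.7 CPM in those of the male-labelled library, a ratio of 0.897 (0.862 to 0.934). In the other classes it was at 95.4 CPM (female-labelled) and 98.2 CPM (male-labelled) in parietal-like, 85.3 (female-labelled) and 80.6 CPM (male-labelled) in mesangial-like, 98.1 (female-labelled) and 116.8 CPM (male-labelled) in endothelial-like, and 59.1 (female-labelled) and 68.7 CPM (male-labelled) in tubule-like cells. All 4 of those intervals held 1, and the ratios ran between 0.840 and 1.06. Npas2, which can stand in for CLOCK (chromosome 1, 39193731 to 39363236, plus strand), was sparse: 255 UMIs in podocyte-like cells of the female-labelled library and 293 in those of the male-labelled library, or 5.03 (female-labelled) and 7.30 CPM (male-labelled). Its ratio there was 0.688 (0.580 to 0.817). The other classes held 2 to 11 UMIs of Npas2 in each library, too few to place a direction.

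Per1, Per2 and Per3 encode the period repressors. Per1 (chromosome 11, 69095217 to 69109960, plus strand) was at 109.4 CPM in podocyte-like cells of the female-labelled library and 109.0 CPM in those of the male-labelled library. It was at 74.4 CPM (female-labelled) and 62.7 CPM (male-labelled) in parietal-like, 54.9 (female-labelled) and 55.4 CPM (male-labelled) in mesangial-like, 60.3 (female-labelled) and 47.3 CPM (male-labelled) in endothelial-like, and 41.0 (female-labelled) and 38.7 CPM (male-labelled) in tubule-like cells. The library ratio held 1 in every class, with values between 0.991 and 1.27. Per2 (chromosome 1, 91415982 to 91459324, minus strand) was low outside parietal-like cells, where it was at 26.3 CPM in the female-labelled library and 23.9 CPM in the male-labelled library. Its podocyte-like levels were 7.18 (female-labelled) and 4.84 CPM (male-labelled), a ratio of 1.48 (1.24 to 1.78). Mesangial-like cells had 13.2 CPM (female-labelled) and 9.84 CPM (male-labelled), endothelial-like cells 14 UMIs (female-labelled) and 1 UMI (male-labelled), and tubule-like cells 6 (female-labelled) and 24 UMIs (male-labelled). The tubule-like cells were the one class in which the female-labelled library was the lower one, with a ratio of 0.382 (0.128 to 0.958).

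Per3 (chromosome 4, 151003652 to 151044665, minus strand), the member with 2 D-boxes above, was at 24.98 CPM in podocyte-like cells of the female-labelled library and 13.5 CPM in those of the male-labelled library, a ratio of 1.85 (1.67 to 2.05). It was at 31.0 CPM (female-labelled) and 19.4 CPM (male-labelled) in parietal-like cells, a ratio of 1.60 (1.08 to 2.41), and at 33.4 (female-labelled) and 19.7 CPM (male-labelled) in mesangial-like cells, a ratio of 1.699 (1.12 to 2.63). Those 3 intervals overlap, and they lie above 1. Endothelial-like cells had 22.4 CPM (female-labelled) and 15.8 CPM (male-labelled), with an interval of 0.870 to 2.39, and tubule-like cells 17.5 (female-labelled) and 24.2 CPM (male-labelled), with an interval of 0.434 to 1.17.

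Nr1d1 (chromosome 11, 98767932 to 98775333, minus strand) was at 121.5 CPM in podocyte-like cells of the female-labelled library and 99.5 CPM in those of the male-labelled library, a ratio of 1.22 (1.17 to 1.27). Parietal-like cells had 136.4 CPM (female-labelled) and 88.8 CPM (male-labelled), a ratio of 1.54 (1.28 to 1.85), and endothelial-like cells 108.1 (female-labelled) and 72.6 CPM (male-labelled), a ratio of 1.49 (1.19 to 1.87). Mesangial-like cells had 97.3 (female-labelled) and 76.9 CPM (male-labelled), with an interval of 1.02 to 1.58, and tubule-like cells 88.7 (female-labelled) and 85.4 CPM (male-labelled), with an interval of 0.826 to 1.30. The female-labelled library was thus the higher one beyond counting error in 4 classes. Nr1d2 (chromosome 14, 18204054 to 18239127, minus strand), its close relative, was nearly level between libraries: 62.8 CPM (female-labelled) and 62.3 CPM (male-labelled) in podocyte-like, 85.6 (female-labelled) and 85.5 CPM (male-labelled) in parietal-like, 101.5 (female-labelled) and 98.4 CPM (male-labelled) in mesangial-like, and 64.5 (female-labelled) and 57.7 CPM (male-labelled) in tubule-like cells. Endothelial-like cells were the exception, at 79.4 CPM in the female-labelled library and 58.1 CPM in the male-labelled library, a ratio of 1.37 (1.06 to 1.77).

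Dbp (chromosome 7, 45705088 to 45710203, plus strand), a direct BMAL1 target whose transcript has one of the deepest daily swings in mouse tissues, was at 36.8 CPM in podocyte-like cells of the female-labelled library and 21.0 CPM in those of the male-labelled library, a ratio of 1.76 (1.62 to 1.91). Parietal-like cells had 86.8 CPM (female-labelled) and 33.3 CPM (male-labelled), a ratio of 2.61 (1.97 to 3.50). Mesangial-like cells had 185.3 (female-labelled) and 91.6 CPM (male-labelled), a ratio of 2.02 (1.68 to 2.44). Both mesangial-like values stood above those of the other classes in the same library. Endothelial-like cells had 81.5 CPM (female-labelled) and 20.2 CPM (male-labelled), a ratio of 4.03 (2.77 to 6.06), whose interval lies above those of podocyte- and mesangial-like cells. Tubule-like cells had 39.6 (female-labelled) and 34.3 CPM (male-labelled), and their interval, 0.809 to 1.64, held 1. Tef (chromosome 15, 81802421 to 81826863, plus strand), the D-box binding relative of Dbp, was level in podocyte-like cells, at 46.1 CPM in the female-labelled library and 45.2 CPM in the male-labelled library. It was higher in the female-labelled library in mesangial-like cells (69.1 female-labelled against 48.6 CPM male-labelled; 1.42, 1.09 to 1.88) and endothelial-like cells (42.4 female-labelled against 25.9 CPM male-labelled; 1.64, 1.13 to 2.42), and its interval held 1 in parietal-like (42.2 female-labelled against 36.6 CPM male-labelled) and tubule-like cells (29.6 female-labelled against 40.1 CPM male-labelled).

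Exons of 4 members overlap a gene on the other strand, and the sources used here do not give the strand setting of the counting. Thra, which overlaps Nr1d1, was at 78.6 to 190 CPM in the female-labelled library and 99.0 to 193 CPM in the male-labelled library. Sphk2, which overlaps Dbp, was at 16.2 to 27.6 CPM (female-labelled) and 14.8 to 25.1 CPM (male-labelled), without the library difference that Dbp showed; Gm45355 (over Arntl) had no UMI, and Gm17597 (over Tef) had at most 12 UMIs in a class.

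**Figure D2:**
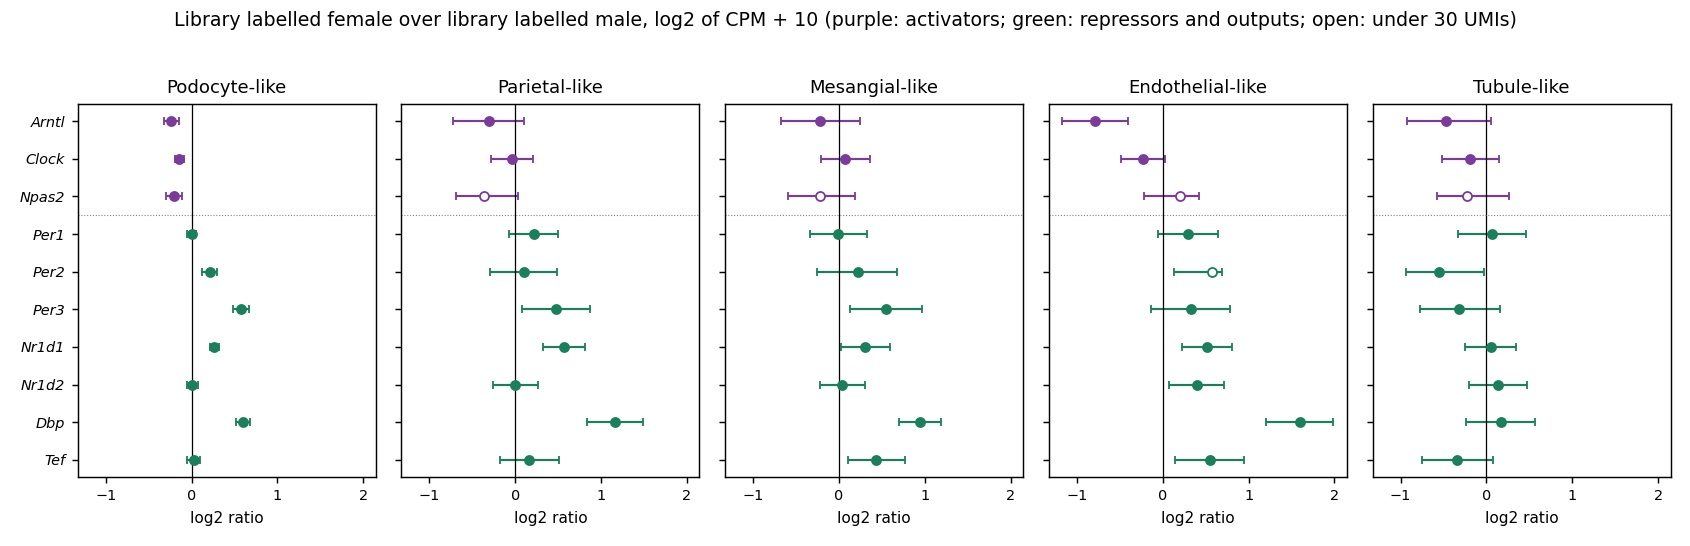
Ratio of the female-labelled over the male-labelled library for each clock gene (rows), as log2 of CPM + 10 (horizontal axis), in each of 5 cell classes (panels); bars are 95% intervals of counting error, and open points had under 30 UMIs over both libraries. Dbp lies right of 0 with its interval in the first 4 panels, and Arntl lies left of 0 in all 5.

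Counted at a fixed size, members past 1.5-fold with at least 30 UMIs over both libraries were 2 higher and 0 lower of 10 in podocyte-like cells (Dbp and Per3), where 2.79% of 12428 genes were higher and 3.07% lower, 5.86% in all. In parietal-like cells 3 of 9 were higher (Dbp, Per3 and Nr1d1) and 0 lower, against 5.72% and 4.22% of genes (9.94% in all). In mesangial-like cells 2 of 9 were higher (Dbp and Per3) and 0 lower, against 7.81% and 6.4% (14.2% in all). In endothelial-like cells 2 of 8 were higher (Dbp and Tef) and 1 was lower (Arntl), against 6.89% and 5.43% (12.3% in all). In tubule-like cells 0 of 9 were higher and 2 were lower (Arntl and Per2), against 6.66% and 8.29% (14.9% in all). The share of members past this size was above that of all genes in each class, but counts of 1 to 3 are too small to read as a result. In tubule-like cells the interval of Arntl held 1 (0.254 to 1.07), and Per2 had 6 (female-labelled) and 24 UMIs (male-labelled).

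Of the repressor and output members, 7 of 7 had a ratio above 1 in podocyte-like cells, where 46.3% of all genes did, 7 of 7 in parietal-like (50.5% of all genes), 6 of 7 in mesangial-like (50.8%), 6 of the 6 with enough UMIs in endothelial-like (52.3%), and 4 of 7 in tubule-like cells (48.2%). Several of these ratios were at 1 within counting error: in podocyte-like cells those of Per1 (1.0035), Nr1d2 (1.01) and Tef (1.02) had intervals that held 1, and without the clusters led by early-response genes Per1 (-0.05) and Nr1d2 (-0.10) lay below 0 on the log2 scale. Their median log2 ratio was 0.21, 0.22, 0.30 and 0.45 in the first 4 classes and 0.05 in tubule-like cells, beside medians of all genes between -0.01 and 0.01.

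Mean log2(CPM + 10) of the 7 repressor and output members minus that of the 3 activators gives a position of each class along the opposition of the 2 arms. It was 0.65 in podocyte-like cells of the female-labelled library and 0.21 in those of the male-labelled library, a difference of 0.43 (0.38 to 0.49). It was 1.18 (female-labelled) and 0.55 (male-labelled) in parietal-like cells, a difference of 0.62 (0.39 to 0.85), and 1.48 (female-labelled) and 1.001 (male-labelled) in mesangial-like cells, a difference of 0.48 (0.23 to 0.73). Endothelial-like cells had 0.62 (female-labelled) and -0.26 (male-labelled), a difference of 0.88 (0.65 to 1.11). In these 4 classes the female-labelled library stood nearer to the outputs beyond counting error. Tubule-like cells had 0.78 (female-labelled) and 0.60 (male-labelled), and the interval of their difference of 0.18 ran from -0.09 to 0.46; it holds 0 and overlaps the intervals of podocyte-, parietal- and mesangial-like cells. Podocyte- and mesangial-like cells, with like differences, stood at different positions, mesangial-like cells being nearest to the output side in both libraries. With 1 library per title and no hour of killing, these values place no class at a phase.

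The 2 endothelial-like clusters differed from each other. In glomerular capillary cells Dbp was at 120.8 CPM in the female-labelled library and 16.9 CPM in the male-labelled library, a ratio of 7.14 (3.98 to 14.1), while arterial endothelial-like cells had 29.1 (female-labelled) and 22.9 CPM (male-labelled), a ratio of 1.27 (0.699 to 2.36). The 2 intervals do not overlap. Arntl was at 15.3 CPM in glomerular capillary-like cells of the female-labelled library and 52.1 CPM in those of the male-labelled library, 0.293 in ratio (0.163 to 0.514), against 38.8 (female-labelled) and 50.3 CPM (male-labelled) in arterial cells, 0.771 in ratio. Nr1d1 was at 135 CPM (female-labelled) and 73.3 CPM (male-labelled) in capillary cells, 1.85 in ratio (1.35 to 2.56), and at 71.7 (female-labelled) and 72.0 CPM (male-labelled) in arterial cells. Tef was at 43.7 (female-labelled) and 21.1 CPM (male-labelled) in capillary cells, 2.07 in ratio (1.16 to 3.92). In the male-labelled library the 2 endothelial clusters thus had like levels of Arntl, Nr1d1 and Dbp, and in the female-labelled library they stood apart. The arterial cluster was mixed: at the finer clustering 65 (female-labelled) and 67 cells (male-labelled) kept its name. An unnamed cluster led by Fabp4, Gpihbp1 and Igfbp3 held 19 (female-labelled) and 16 (male-labelled). The finer arterial cells had Dbp at 21.6 CPM (15 UMIs, female-labelled) and 16.0 CPM (10 UMIs, male-labelled). Their Arntl was at 47.4 (female-labelled) and 60.8 CPM (male-labelled). Mesangial markers, 10 of 10 above 0, summed to 1046.5 CPM in endothelial-like cells of the female-labelled library and 136 CPM in those of the male-labelled library; with cells of 2 or more Pdgfrb UMIs left out, the endothelial-like log2 ratios of Dbp and Arntl were 1.60 and -0.71, and with those cells 1.60 and -0.79.

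The finer parietal-like cells alone gave Dbp at 99.7 CPM in the female-labelled library and 46.6 CPM in the male-labelled library, 2.14 in ratio (1.53 to 3.06), and Nr1d1 at 141.9 (female-labelled) and 87.8 CPM (male-labelled), 1.62 in ratio (1.25 to 2.10). Per3 there was at 35.5 CPM (female-labelled) and 27.1 CPM (male-labelled), and its interval of 0.812 to 2.17 held 1. Per2 reached 34.9 (female-labelled) and 32.5 CPM (male-labelled) in them. Per1 was at 52.4 CPM (female-labelled) and 40.1 CPM (male-labelled) in these finer cells, against 74.4 (female-labelled) and 62.7 CPM (male-labelled) in the whole class. The thick ascending limb-like cells alone gave Dbp at 59.3 CPM (female-labelled) and 47.8 CPM (male-labelled) at the finer clustering, and the distal convoluted tubule-like cells 17.9 (female-labelled) and 32.8 CPM (male-labelled), from 7 (female-labelled) and 29 UMIs (male-labelled); both intervals held 1. In tubule-like cells haemoglobin transcripts (4 of 4 genes above 0 in both) were at 7820 CPM in the female-labelled library and 15.8 CPM in the male-labelled library and cell cycle markers at 373 (female-labelled) and 37.9 CPM (male-labelled), 7 (female-labelled) and 6 (male-labelled) of 7 of them above 0. Other classes had such gaps too: haemoglobin summed to 2343 (female-labelled) and 18.3 CPM (male-labelled) in parietal-like and 1277 (female-labelled) and 321 CPM (male-labelled) in podocyte-like cells, and cell cycle markers to 62.0 (female-labelled) and 13.9 CPM (male-labelled) in parietal-like and 47.8 (female-labelled) and 8.84 CPM (male-labelled) in endothelial-like cells. Their part in the values of any class was not tested.

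Podocyte-like cells allowed the closest look, since they formed 8 clusters with cells of both libraries. Dbp was higher in the female-labelled library in 8 of 8 clusters, at 24.7 to 49.7 CPM there and 19.0 to 25.1 CPM in the male-labelled library, with ratios of 1.30 to 2.61. Per3 was higher in 8 of 8 as well, at 17.3 to 27.1 CPM (female-labelled) and 11.01 to 19.5 CPM (male-labelled). Arntl was lower in the female-labelled library in 8 of 8, at 12.5 to 20.5 CPM against 17.6 to 31.7 CPM in the male-labelled library, and Npas2 in 8 of 8, at 3.33 to 6.505 CPM (female-labelled) against 5.69 to 9.53 CPM (male-labelled). Clusters of 1 library share its mouse and depth and are not replicates.

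Nr1d1, Per1 and Per2 followed another axis in these clusters. Nr1d1 ranged from 53.6 to 199 CPM over the clusters of the female-labelled library and from 45.1 to 207 CPM over those of the male-labelled library, and the clusters rich in it were those rich in early-response transcripts (Fos, Fosb, Jun, Junb, Egr1, Ier2, Atf3, Nr4a1, Dusp1 and Btg2), which cells make within minutes of stimulation or dissociation. Over the 8 clusters the Pearson correlation with the summed early-response level was 0.936 in the female-labelled library and 0.970 in the male-labelled library for Nr1d1, 0.898 (female-labelled) and 0.943 (male-labelled) for Per1, 0.840 (female-labelled) and 0.830 (male-labelled) for Per2, and 0.865 (female-labelled) and 0.824 (male-labelled) for Nr1d2. Tef ran the other way, at -0.872 (female-labelled) and -0.891 (male-labelled). For Dbp it was 0.157 (female-labelled) and -0.424 (male-labelled), and for Arntl -0.327 (female-labelled) and 0.181 (male-labelled). Per3 had 0.626 (female-labelled) and 0.640 (male-labelled). Clock had -0.846 (female-labelled) and 0.072 (male-labelled), and Npas2 0.242 (female-labelled) and 0.558 (male-labelled). Points of 1 library share cells' depth and dissociation, so these values are descriptions.

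**Figure D3:**
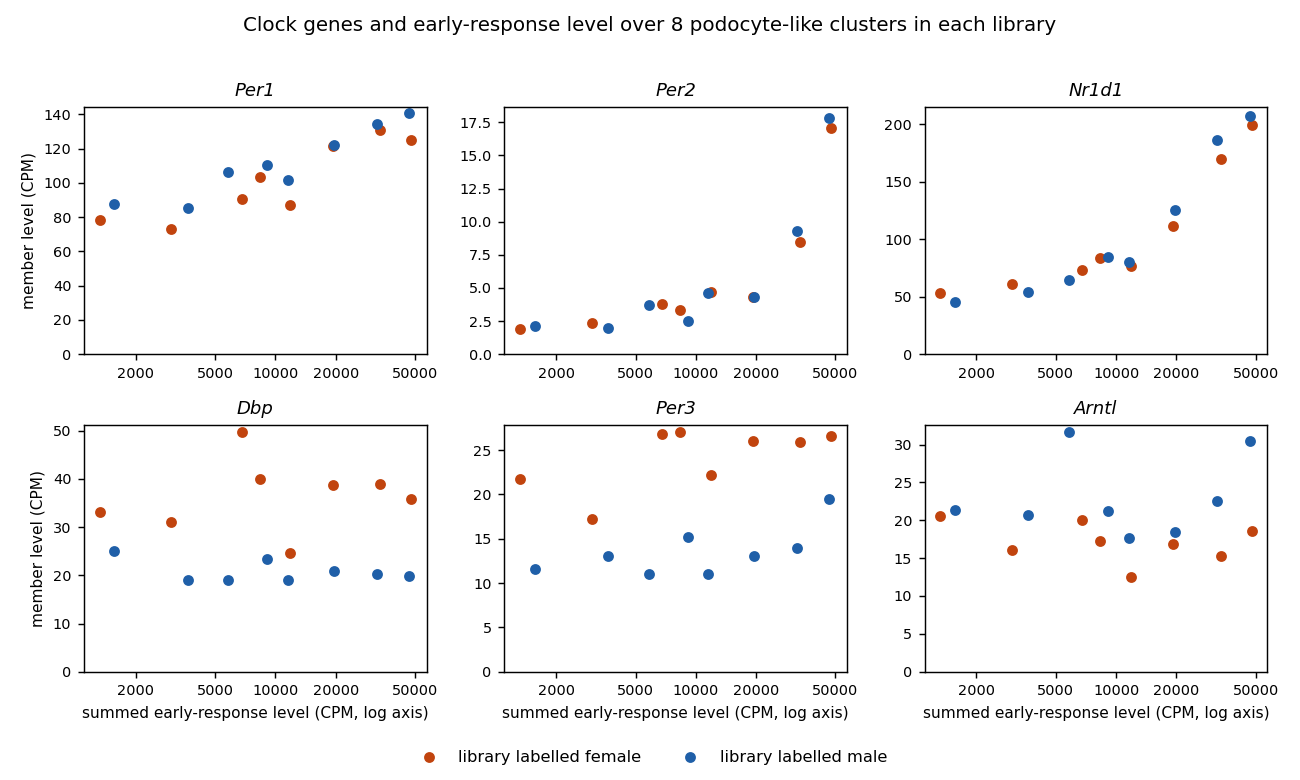
Level of 6 clock genes in CPM (vertical axes) against the summed level of 10 early-response genes in CPM (horizontal axes, log scale) in 8 podocyte-like clusters of the female-labelled library and the same 8 of the male-labelled library. Nr1d1 climbs along one curve for both libraries, reaching 199 CPM (female-labelled) and 207 CPM (male-labelled), while Dbp and Per3 of the female-labelled library lie above those of the male-labelled library in every cluster.

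The libraries differed along that axis. The early-response sum was 21847 CPM in podocyte-like cells of the female-labelled library and 14307 CPM in those of the male-labelled library, and the 2 clusters led by early-response genes held 789 and 573 cells of the female-labelled library but 248 and 331 of the male-labelled library. Within clusters Nr1d1 was higher in the female-labelled library in 3 and lower in 5 of 8, with ratios of 0.886 to 1.19, although its pooled ratio was 1.22. Per1 was lower in 8 of 8 (0.852 to 0.998) with a pooled ratio of 1.0035, and Per2 was higher in 4 and lower in 4. Without the 2 early-led clusters the pooled log2 ratio of Nr1d1 was 0.07 in place of 0.26 and that of Per2 was 0.04 in place of 0.21, while Dbp was 0.58 in place of 0.60 and Per3 was 0.58 in place of 0.57. In the other classes the early-response sums were 18597 CPM (female-labelled) and 20175 CPM (male-labelled) in parietal-like, 6179 (female-labelled) and 6827 CPM (male-labelled) in mesangial-like, 10057 (female-labelled) and 11001 CPM (male-labelled) in endothelial-like, and 7990 (female-labelled) and 6027 CPM (male-labelled) in tubule-like cells.

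Differences between classes were tested within libraries, since each mouse gave every class: edgeR's quasi-likelihood test on summed counts with the library as a block, with Benjamini-Hochberg adjustment over 10841 genes and a threshold of 0.05. The 2 libraries are the only replicates. All 10 class and library sums were fitted together, with 4 residual degrees of freedom. The p-values rest on residuals pooled over the 5 classes and moderated over genes. A small p-value is therefore not a measure of how closely the 2 mice agreed in that contrast. Of the 10 members 9 passed the filter on low counts, which Npas2 did not. Between such different cell types 50.2% of all genes were called in parietal-like, 54.9% in mesangial-like, 57.2% in endothelial-like and 58.3% in tubule-like cells, and the members' counts are read against that. In parietal-like minus podocyte-like cells 2 of 9 were higher and 2 lower, against 27.1% and 23.1% of all genes. In mesangial-like cells 2 were higher and 4 lower, against 27.7% and 27.2%. In endothelial-like cells 2 were higher and 2 lower, against 28.6% and 28.6%, and in tubule-like cells 0 were higher and 3 lower, against 31.7% and 26.5%. At counts this small the shares lay near the background, with the widest gaps in mesangial-like cells, where 4 of 9 were lower, and in tubule-like cells, where 0 of 9 were higher. With no filter on low counts the members called were 8 of 10 each in parietal- and endothelial-like and 5 of 10 in tubule-like cells, where 36.8%, 38.6% and 41.8% of 20623 genes were called. Only 10841 of those genes passed the filter, against 9 of the 10 members. These shares are therefore not a like reference for the members, and no excess is read from them.

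Per1 was lower in all 4 classes than in podocyte-like cells, the one member called in each. Its log2 fold change was -0.83 (SE 0.11, edgeR adjusted p = 0.00012) in parietal-like, -1.12 (SE 0.11, edgeR adjusted p = 1.5e-05) in mesangial-like, -1.09 (SE 0.11, edgeR adjusted p = 2.0e-05) in endothelial-like and -1.37 (SE 0.12, edgeR adjusted p = 6.3e-06) in tubule-like cells. Against podocyte-like cells without the 2 early-led clusters the 4 values were -0.69, -0.99, -0.95 and -1.24, all still past the threshold. Clock was lower in parietal-like (-0.34, edgeR adjusted p = 0.018; lost with DESeq2, adjusted p = 0.115), mesangial-like (-0.51, edgeR adjusted p = 0.0020) and tubule-like cells (-0.69, edgeR adjusted p = 0.00040), and was -0.11 in endothelial-like cells (edgeR adjusted p = 0.37).

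Dbp was higher in mesangial-like cells by 2.11 on the log2 scale (SE 0.22, edgeR adjusted p = 2.2e-05) and in parietal-like cells by 0.86 (SE 0.24, edgeR adjusted p = 0.013). The parietal-like call was lost with DESeq2 (adjusted p = 0.057) and without the library block. In endothelial-like cells the value was 0.71 (SE 0.26, edgeR adjusted p = 0.038), and this rested on 1 library: Dbp was at 81.5 CPM in endothelial-like against 36.8 CPM in podocyte-like cells of the female-labelled library, and at 20.2 against 21.0 CPM in the male-labelled library, which alone gave -0.12. The call was also lost under further settings, among them the finer clustering and the fits without the cells of highest Scrublet score, without the Pdgfrb-positive cells, with DESeq2 and without the library block (adjusted p = 0.050 to 0.26). Tubule-like cells had 0.51 (edgeR adjusted p = 0.15). Per2 was higher in parietal-like cells by 1.89 (SE 0.33, edgeR adjusted p = 0.00088), at a like level in both libraries, and it did not pass the threshold in the other classes. Without the 2 early-led clusters, where podocyte-like Per2 was highest, it was higher by 2.76 in parietal-like, 1.701 in mesangial-like (edgeR adjusted p = 0.0063) and 1.36 in tubule-like cells (edgeR adjusted p = 0.037).

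Arntl was lower in mesangial-like cells, with a log2 fold change of -1.55 (SE 0.25, edgeR adjusted p = 0.00044), and higher in endothelial-like cells, with 0.83 (SE 0.18, edgeR adjusted p = 0.0024). Glomerular capillary-like cells alone gave 0.51 (edgeR adjusted p = 0.17). The tubule-like value was -0.67 (SE 0.23, edgeR adjusted p = 0.031), lost with DESeq2, with relative log expression size factors, in thick ascending limb-like cells alone, at a mitochondrial limit of 10% and without the library block. Nr1d2 was higher in mesangial-like cells by 0.55 (SE 0.11, edgeR adjusted p = 0.0021). Nr1d1 was lower in mesangial-like (-0.47, edgeR adjusted p = 0.011) and endothelial-like cells (-0.37, edgeR adjusted p = 0.033); against podocyte-like cells without the 2 early-led clusters the values were -0.02 and 0.08, and DESeq2 and the fit without the library block called neither. The endothelial-like call was also lost with relative log expression size factors (edgeR adjusted p = 0.072) and with glomerular capillary-like cells alone (edgeR adjusted p = 0.46). Per3 and Tef did not pass the threshold in any class. Mesangial-like cells thus had low Arntl and high Dbp and Nr1d2 in both libraries against podocyte-like cells. Arntl was above its podocyte-like levels of 17.2 (female-labelled) and 21.9 CPM (male-labelled) in both libraries in arterial endothelial-like cells, at 38.8 (female-labelled) and 50.3 CPM (male-labelled), whereas glomerular capillary-like cells had 15.3 (female-labelled) and 52.1 CPM (male-labelled).

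**Figure D4:**
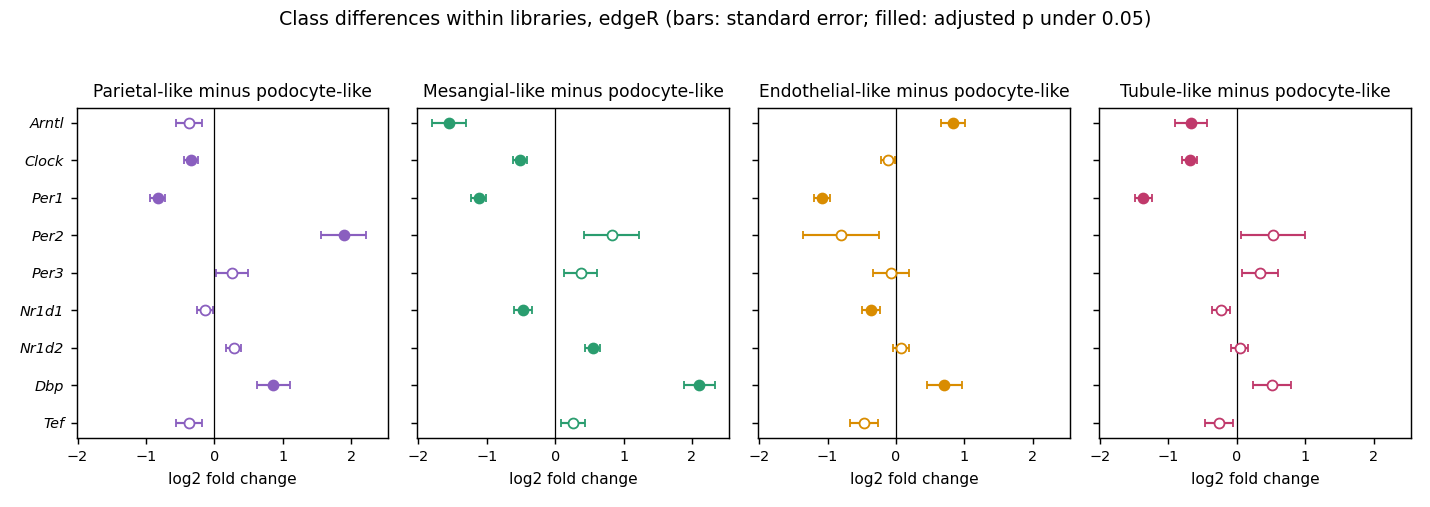
Log2 fold change (horizontal axis) of 9 clock genes (rows) in each class minus podocyte-like cells (panels) from edgeR with the library as a block; bars are standard errors, and filled points had an adjusted p under 0.05. Per1 is filled and left of 0 in all 4 panels, and Dbp reaches 2.11 in mesangial-like cells.

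Of 14 further core clock genes 10 were tested: 5 were higher and 0 lower in parietal-like, 4 higher and 3 lower in mesangial-like, 4 higher and 3 lower in endothelial-like, and 3 higher and 3 lower in tubule-like cells, each minus podocyte-like cells. At 5, 7, 7 and 6 of 10 these counts lay near the shares of all genes called, which were 50.2%, 54.9%, 57.2% and 58.3% in the 4 classes. Hlf, the third D-box binding factor of the Dbp and Tef family, was higher by 3.67 (SE 0.22) in parietal-like, 4.81 (SE 0.21) in mesangial-like, 1.59 (SE 0.37) in endothelial-like and 3.23 (SE 0.28) in tubule-like cells, each with an edgeR adjusted p of 0.0041 or less. The podocyte-like level of Hlf was only 2.82 (female-labelled) and 1.97 CPM (male-labelled). Cry2, which encodes a PER partner, was lower, with log2 fold changes of -1.64 in mesangial-like, -2.11 in endothelial-like and -1.58 in tubule-like cells, and so was Rora, an activator of Arntl through ROR elements, with -0.81, -1.57 and -0.80. Cry1 was lower in the same 3 classes. Timeless was higher in all 4 classes (2.35 in parietal-like, 4.47 in mesangial-like, 6.04 in endothelial-like and 1.93 in tubule-like cells). Its podocyte-like level was only 0.868 (female-labelled) and 0.773 CPM (male-labelled). Nfil3 was higher in parietal-like (0.94) and Csnk1d in mesangial-like cells (0.49). Bhlhe40, an E-box repressor, was higher in parietal-like (1.56), endothelial-like (1.44) and tubule-like cells (1.79), and Csnk1e, a kinase that marks PER proteins for decay, in parietal-like (1.23), mesangial-like (1.72) and endothelial-like cells (1.52). The median over the core list was 0.58, -0.18, 0.38 and -0.02 in the 4 classes, and over all genes -0.02, -0.05, -0.05 and 0.02.

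Of 7 clock-controlled output genes 6 were tested, each class minus podocyte-like cells. In parietal-like cells 2 were higher and 1 lower, and in mesangial-like cells 2 were higher and 2 lower. In endothelial-like cells 2 were higher and 1 lower, and in tubule-like cells 2 were higher and 3 lower. Of all genes 50.2%, 54.9%, 57.2% and 58.3% were called in the 4 classes. Wee1, a cell cycle kinase, was higher in all 4 classes (1.85 in parietal-like, 1.10 in mesangial-like, 1.64 in endothelial-like and 2.24 in tubule-like cells). Usp2, a deubiquitinase, was higher in tubule-like (5.19) and parietal-like cells (2.11) and lower in mesangial-like (-1.55) and endothelial-like cells (-1.08). The 2 lower values rest on few UMIs of Usp2: 4 in mesangial-like cells of each library, and 8 (female-labelled) and 2 (male-labelled) in endothelial-like cells. Its podocyte-like level was 5.82 (female-labelled) and 3.91 CPM (male-labelled). Tsc22d3, a glucocorticoid-induced gene, was lower in parietal-like (-0.61), mesangial-like (-0.85) and tubule-like cells (-2.30). Tspan4 was higher in mesangial-like (0.99) and endothelial-like cells (0.49) and lower in tubule-like cells (-1.08), where Coq10b was lower too (-0.79).

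Between libraries the core list had 14, 11, 10, 9 and 8 genes with at least 30 UMIs in podocyte-, parietal-, mesangial-, endothelial- and tubule-like cells, of which 2, 2, 3, 1 and 0 were past 1.5-fold, where 5.86%, 9.94%, 14.2%, 12.3% and 14.9% of all genes were. Nfil3 and Arntl2 were past 1.5-fold on the higher side in podocyte-like cells of the female-labelled library, Hlf and Bhlhe41 in parietal-like, Cry1 in mesangial-like and Hlf in endothelial-like cells, and Nfil3 and Bhlhe40 were past it on the lower side in mesangial-like cells. The intervals of Bhlhe41 (0.929 to 3.57) and Cry1 (0.774 to 3.82) held 1, and Arntl2 was at 3.75 (female-labelled) and 1.45 CPM (male-labelled). Hlf, the relative of Dbp, was at 44.3 CPM in parietal-like cells of the female-labelled library and 23.3 CPM in those of the male-labelled library (1.90, 1.34 to 2.74), and at 11.2 (female-labelled) and 3.16 CPM (male-labelled) in endothelial-like cells (3.56, 1.35 to 11.8). It was level in mesangial-like cells, at 79.7 (female-labelled) and 67.7 CPM (male-labelled), where its interval of 0.931 to 1.496 held 1. Nfil3, a D-box repressor that runs opposite to Dbp, was at 5.26 CPM in mesangial-like cells of the female-labelled library and 14.1 CPM in those of the male-labelled library (0.372, 0.177 to 0.754), and at 16.5 (female-labelled) and 10.1 CPM (male-labelled) in podocyte-like cells (1.63, 1.45 to 1.84). The 2 intervals lie on opposite sides of 1. The output list had 7, 7, 5, 5 and 6 genes with enough UMIs in the 5 classes, of which 0, 1, 1, 1 and 1 were past that size. Usp2 was past 1.5-fold higher in parietal-like, Wee1 in mesangial- and tubule-like, and Tspan4 in endothelial-like cells.

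Outside these lists, the genes whose library log2 ratio over the 5 classes lay nearest to that of Dbp were Cpt1a (mean absolute difference 0.31), Ucp2 (0.37) and Gm10036 (0.37), of 7746 genes compared. Cpt1a, which encodes the gate enzyme of mitochondrial fatty acid entry, had log2 ratios of 0.78 in podocyte-like, 0.59 in parietal-like, 0.73 in mesangial-like, 1.09 in endothelial-like and 0.22 in tubule-like cells. Over the 10 class and library sums, Stub1 (Pearson r 0.954), Mff (0.926) and Aamp (0.913) were nearest to the mean of the repressor and output members, and Gnl3l (0.948), Trim8 (0.936) and Syn3 (0.931) to the mean of the activators, of 5865 genes; the sums share 2 mice.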

How the data were processed

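The authors deposited unnormalized UMI counts for every gene and barcode, per the file headers. The submitters' processing notes name Cell Ranger 6.1.2, STAR 2.7.5a and the build mm10, with no role for each. The sources used here do not give the strand setting or the rule that called cells. Cells were kept with at least 500 genes, which removed 112 barcodes of the female-labelled library and 145 of the male-labelled library, and at most 20% mitochondrial UMIs, which removed 283 and 504. Scrublet called 3 and 1 cells, so it has not worked, and doublets remain. Cells of both libraries were clustered together with scanpy 1.11.5 (2000 variable genes without the clock genes, 30 components, 20 neighbours, Leiden resolution 1.0, leidenalg 0.10.2), which gave 17 clusters, named from marker lists that needed 3 markers.

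Raw counts were summed per class and library and given as CPM. Sums have exact Poisson intervals and ratios exact conditional binomial intervals, at 95%; UMIs of 1 cell are not independent draws of a mouse, so both cover counting error only. Log2 ratios used CPM + 10. Class differences were fitted with edgeR 4.0.16 (R 4.3.3; TMM, quasi-likelihood, library as block, genes at 10 CPM or more in 2 sums; 4 residual degrees of freedom). The ratio intervals were run on Poisson draws, and the fit on simulated counts without a library effect. These runs check the code and do not measure error rates in these data. The library is a block because every class of a library came from 1 mouse. Alternatives covered the mitochondrial limit, clustering resolution, Scrublet scores, podocyte RNA subtraction, cell subtypes, prior, scaling, filter, DESeq2 1.42.0, the block and leaving out a library; 2 more, without early-led podocyte-like clusters and without endothelial-like cells with 2 or more Pdgfrb UMIs, were chosen after seeing the data. The 10 members, the gene lists and the named genes (members, list genes past a threshold and the 3 nearest genes by likeness) were chosen with earlier results of these data known. Gene positions are from GENCODE on GRCm38 and promoter windows from RefSeq on GRCm38.p6.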

Additional observations from a re-analysis of the deposited data

How the results depend on the processing

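The output minus activator difference between the libraries stayed positive in all 5 classes under every alternative run. Its value moved with a prior of 1 CPM to 0.67 in podocyte-like, 0.99 in parietal-like and 0.79 in mesangial-like cells, at a mitochondrial limit of 10% to 0.38 in podocyte-like and 0.70 in tubule-like cells, without the early-led clusters to 0.34 in podocyte-like cells, and with glomerular capillary cells alone to 1.28 in endothelial-like cells. The 10% limit changed the classes in more than cell quality. Clusters of 440 and 192 cells (female-labelled) and 607 and 320 (male-labelled) had 10 of 10 podocyte markers but went unnamed there. The podocyte-like class then held 3433 (female-labelled) and 2719 cells (male-labelled), and the tubule-like class 15 (female-labelled) and 29 (male-labelled). Members past 1.5-fold were 5 in place of 3 in endothelial-like cells at resolution 2.0 and with glomerular capillary cells alone, and 1 in place of 2 in tubule-like cells after removal of the top 5% by Scrublet score and with thick ascending limb-like cells alone. The shares of all genes past that size under these settings are not given here, so these counts are not read as results. The log2 library ratio of Per2 in tubule-like cells was 0.15 at the 10% limit in place of -0.55. It rested there on 15 (female-labelled) and 29 cells (male-labelled) in place of 70 and 113. Of 380 library ratios recomputed, 353 stayed within their 95% counting interval, 26 left it, and 1, that of Per2, was past 1.5-fold and changed side; 16 changed sign in all, 11 of them with a log2 ratio as reported under 0.1 in size. Members called against podocyte-like cells were 4 each in parietal- and endothelial-like and 3 in tubule-like cells. DESeq2 called 2 in parietal-like and 2 in endothelial-like cells. The fit with no filter on low counts called 8, 8 and 5, where 36.8%, 38.6% and 41.8% of 20623 genes were called. Many of those genes were below the filter, so these shares are not a like reference for the members. The fit with no replicate block called 2 in endothelial-like cells, the pairing by library changing no other count by over 1.5 times. The shares of all genes called by DESeq2 and without the block are not given here, so those counts are not read as results. In the fit with no filter Npas2 was -1.17 in parietal-like (edgeR adjusted p = 0.011), -1.26 in mesangial-like (edgeR adjusted p = 0.011), -1.67 in endothelial-like (edgeR adjusted p = 0.0016) and -0.83 in tubule-like cells (edgeR adjusted p = 0.11). Endothelial-like minus podocyte-like values reversed for Dbp without the female-labelled library (-0.12 in place of 0.71; 1.06 without the male-labelled library) and for Nr1d1 without the podocyte-like clusters led by early-response genes (0.085 in place of -0.37). The cause of each was not tested. Leaving out a library leaves values with no test. Depth limits Npas2 outside podocyte-like cells, Per2 outside podocyte- and parietal-like cells, and every tubule-like value. It also limits mesangial-like Arntl, at 16 (female-labelled) and 14 UMIs (male-labelled). In glomerular capillary-like cells of the male-labelled library it limits Dbp (12 UMIs) and Tef (15 UMIs).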

Other observations

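Arteriolar smooth muscle- or renin-like cells, a cluster outside the 5 classes (43 cells in the female-labelled library and 62 in the male-labelled library), gave too few UMIs for a clock pattern. Dbp was at 30.7 CPM (12 UMIs) in the female-labelled library and 13.3 CPM (7 UMIs) in the male-labelled library, a ratio of 2.305 with an interval of 0.837 to 6.91. Arntl was at 28.2 CPM (11 UMIs) and 13.3 CPM (7 UMIs), a ratio of 2.11 (0.748 to 6.43), on the other side of 1 from the 5 classes. Nr1d2 was their best covered repressor, at 102.4 CPM in the female-labelled library and 89.5 CPM in the male-labelled library.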
